A study of Mus musculus with 12 samples.

Results

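The genes described here encode the basement membrane of the mouse blastocyst and its main receptor: the laminin chains Lama1, Lama5, Lamb1 and Lamc1, the type IV collagen chains Col4a1 and Col4a2, perlecan (Hspg2), nidogen (Nid1), Sparc and the integrin subunit Itgb1. They were taken by their symbols, with no threshold on a measured value, as a list drawn up with earlier results of these data known, and each of the 10 had 1 row among the 34245 genes of the expression table. Poly(A)-selected mRNA was sequenced from blastocysts that had been moved at E3.5 into DMSO (control) or into the p38-MAPK inhibitor SB220025 at 20 µM (p38-MAPKi) and collected 4, 7 or 10 h later, which gave 6 groups with 2 libraries each. All embryos came from F1 hybrid (C57Bl6 x CBA/W) females mated with F1 males after hormone-induced superovulation, and all were cultured in KSOM+AA from the 2-cell stage. The controls received the same volume of DMSO as the treated embryos. Each library was a pool of 30 whole embryos, so trophectoderm, primitive endoderm (PrE) and epiblast were measured together, and the inhibitor was given to whole embryos. In such pools, fewer cells of a type and less mRNA per cell cannot be told apart.

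A basement membrane is a thin sheet of matrix beneath an epithelium. Laminin heterotrimers of an α, a β and a γ chain polymerise on the cell surface, type IV collagen forms a second network, and nidogen and perlecan link these networks to each other. In the blastocyst such sheets form beneath the trophectoderm and between the PrE and the epiblast, and later the parietal endoderm, which derives from the PrE, makes the thick Reichert's membrane.

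The libraries held between 11242313 and 24457312 reads, with the fewest in replicate 1 of the p38-MAPKi pair at 7 h. Lineage markers fitted the label of whole embryos. The trophectoderm keratins Krt8 and Krt18 had at least 473.7 and 908.6 RPKM (reads per kilobase, divided by sequencing depth) in every library. Nanog of the epiblast list had at least 96.8 RPKM and Gata6 of the PrE list at least 80.9. The paper describes uncommitted early inner cells that express both NANOG and GATA6, so neither marks its lineage alone. Gata4 and Sox17, also on the PrE list, had 1.07 to 3.86 and 1.16 to 4.38 RPKM. Foxa2, a later endoderm factor on the PrE list, had at most 1 read in any library. Of 6 markers of cumulus and oviduct cells, Fshr had no read in any library and the sum of the 6 was at most 4.59 RPKM, while the sum of 4 blood markers was at most 1.01 RPKM.

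Col4a1 and Col4a2 stand head to head. In the GRCm38 coordinates of the table, Col4a1 lies on the minus strand at chr8:11198423-11312826 (ENSMUSG00000031502.11) and Col4a2 on the plus strand at chr8:11312805-11449287 (ENSMUSG00000031503.13), so the genes overlap by 22 bases at their starts, and both are transcribed away from a shared stretch of DNA. The other protein-coding loci are separate. Lama1 lies at chr17:67697265-67822645 (plus), Lama5 at chr2:180176373-180225859 (minus), Lamb1 at chr12:31265234-31329644 (plus) and Lamc1 at chr1:153218922-153332786 (minus). Hspg2 lies at chr4:137468769-137570630 (plus), Nid1 at chr13:13437551-13512269 (plus), Sparc at chr11:55394500-55423183 (minus) and Itgb1 at chr8:128685654-128733200 (plus). Their transcripts are long, with a median of 7868 bases against 3959 bases for the 10720 genes at 1 RPKM or more in at least 6 libraries, and 9 of the 10 exceed that median. The values of this report are counts over whole genes, so no exon or isoform can be singled out.

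The promoter windows of the shared collagen promoter, of the closely matched pair Lama5 and Nid1, and of Sparc are shown because these genes carry the results below. Each window runs from 250 bases before to 50 bases after the start in RefSeq (GRCm38.p6), and 8 of the 10 genes had such an entry. Lama1 and Lamc1 had none. Capitals mark the GC box GGGCGG in either orientation. The Col4a1 window (chr8:11312777-11313076, minus) and the Col4a2 window (chr8:11312555-11312854, plus) share 78 bases, with the starts 21 bases apart. The Lama5 window is chr2:180225810-180226109 (minus), the Nid1 window chr13:13437352-13437651 (plus) and the Sparc window chr11:55420031-55420330 (minus). The RefSeq start of Sparc lies inside the span that the table gives for the gene.
Col4a1: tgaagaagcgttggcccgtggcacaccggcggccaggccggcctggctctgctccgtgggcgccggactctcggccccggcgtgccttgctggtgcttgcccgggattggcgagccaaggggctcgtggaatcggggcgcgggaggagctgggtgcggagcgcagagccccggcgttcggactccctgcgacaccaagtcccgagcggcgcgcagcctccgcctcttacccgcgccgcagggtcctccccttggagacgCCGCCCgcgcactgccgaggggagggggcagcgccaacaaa
Col4a2: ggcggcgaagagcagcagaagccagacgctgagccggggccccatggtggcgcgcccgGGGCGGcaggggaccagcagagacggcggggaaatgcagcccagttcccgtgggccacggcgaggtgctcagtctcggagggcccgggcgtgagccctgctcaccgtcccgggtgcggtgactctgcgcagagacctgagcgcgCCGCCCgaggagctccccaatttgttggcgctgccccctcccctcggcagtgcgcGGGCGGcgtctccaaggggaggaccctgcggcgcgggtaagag
Lama5: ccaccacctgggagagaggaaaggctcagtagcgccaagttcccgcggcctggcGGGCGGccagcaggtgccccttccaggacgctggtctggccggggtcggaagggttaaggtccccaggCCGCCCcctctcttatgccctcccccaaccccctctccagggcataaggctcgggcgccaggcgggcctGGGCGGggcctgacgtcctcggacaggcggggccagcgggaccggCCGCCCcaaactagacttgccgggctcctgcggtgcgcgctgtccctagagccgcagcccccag
Nid1: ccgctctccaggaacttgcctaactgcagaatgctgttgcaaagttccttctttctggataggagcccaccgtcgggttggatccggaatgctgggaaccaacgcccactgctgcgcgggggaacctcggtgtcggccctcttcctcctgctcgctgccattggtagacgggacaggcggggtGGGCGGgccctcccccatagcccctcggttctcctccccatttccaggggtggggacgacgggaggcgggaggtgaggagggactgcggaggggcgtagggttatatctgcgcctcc
Sparc: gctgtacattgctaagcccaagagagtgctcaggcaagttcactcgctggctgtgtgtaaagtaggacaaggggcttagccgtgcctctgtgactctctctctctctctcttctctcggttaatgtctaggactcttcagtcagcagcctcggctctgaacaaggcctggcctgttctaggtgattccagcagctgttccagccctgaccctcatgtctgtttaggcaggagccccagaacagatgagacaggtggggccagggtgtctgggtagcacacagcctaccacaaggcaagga

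The GC box occurred 1 time in the Col4a1 window, 3 times in that of Col4a2, 4 times in that of Lama5, 1 time in that of Nid1 and not at all in that of Sparc. The box of the Col4a1 window lies in the bases shared with the Col4a2 window and is counted in both. Including Lamb1, Hspg2 and Itgb1, 7 of 8 windows held it, against 35.9% of the 27025 windows of the same length in the reference. The windows of these genes had a G+C content of 55.3% (Sparc) to 74.0% (Col4a1), and the median of all windows was 52.7%. CCAAT, in either orientation, was found in 4 of the 8 (Lamb1, Col4a1, Col4a2 and Nid1) and in 37.9% of all windows, and GGAATG, the core bound by TEAD factors, in 2 (Nid1 and Itgb1) and in 14.6%. None of the 8 held TATAAA (found in 14.2% of all windows) or TGANTCA, the sequence bound by AP-1 (7.93%), and none held AGATAA, which GATA factors bind (11.4%). These matches describe letters in a window and no binding was measured.

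All 10 genes were expressed in every group, at levels that spanned more than an order of magnitude. Itgb1, the β1 subunit shared by most laminin and collagen receptors, was the most abundant, with a median of 58.1 RPKM over the 12 libraries (39.3 to 67.7). Lama5, the α chain of laminin-511, followed with 47.1 RPKM (27.6 to 69.0). The laminin β1 and γ1 chains came next, Lamb1 with 25.2 RPKM (13.1 to 32.6) and Lamc1 with 23.0 RPKM (13.0 to 27.5). Col4a1 had a median of 19.3 RPKM, Nid1 17.6, Sparc 12.8 and Col4a2 10.1. Hspg2 with 2.26 RPKM (0.996 to 2.72) and Lama1, the α chain of laminin-111, with 1.74 RPKM (0.700 to 2.62) stood at the bottom. Neighbours in this order overlapped in their ranges over the libraries, with the single exception of the step from Col4a2, at least 6.18 RPKM, to Hspg2. The reads behind a value ranged from 144 (Lama1) to 17291 (Lama5).

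**Figure D1:**
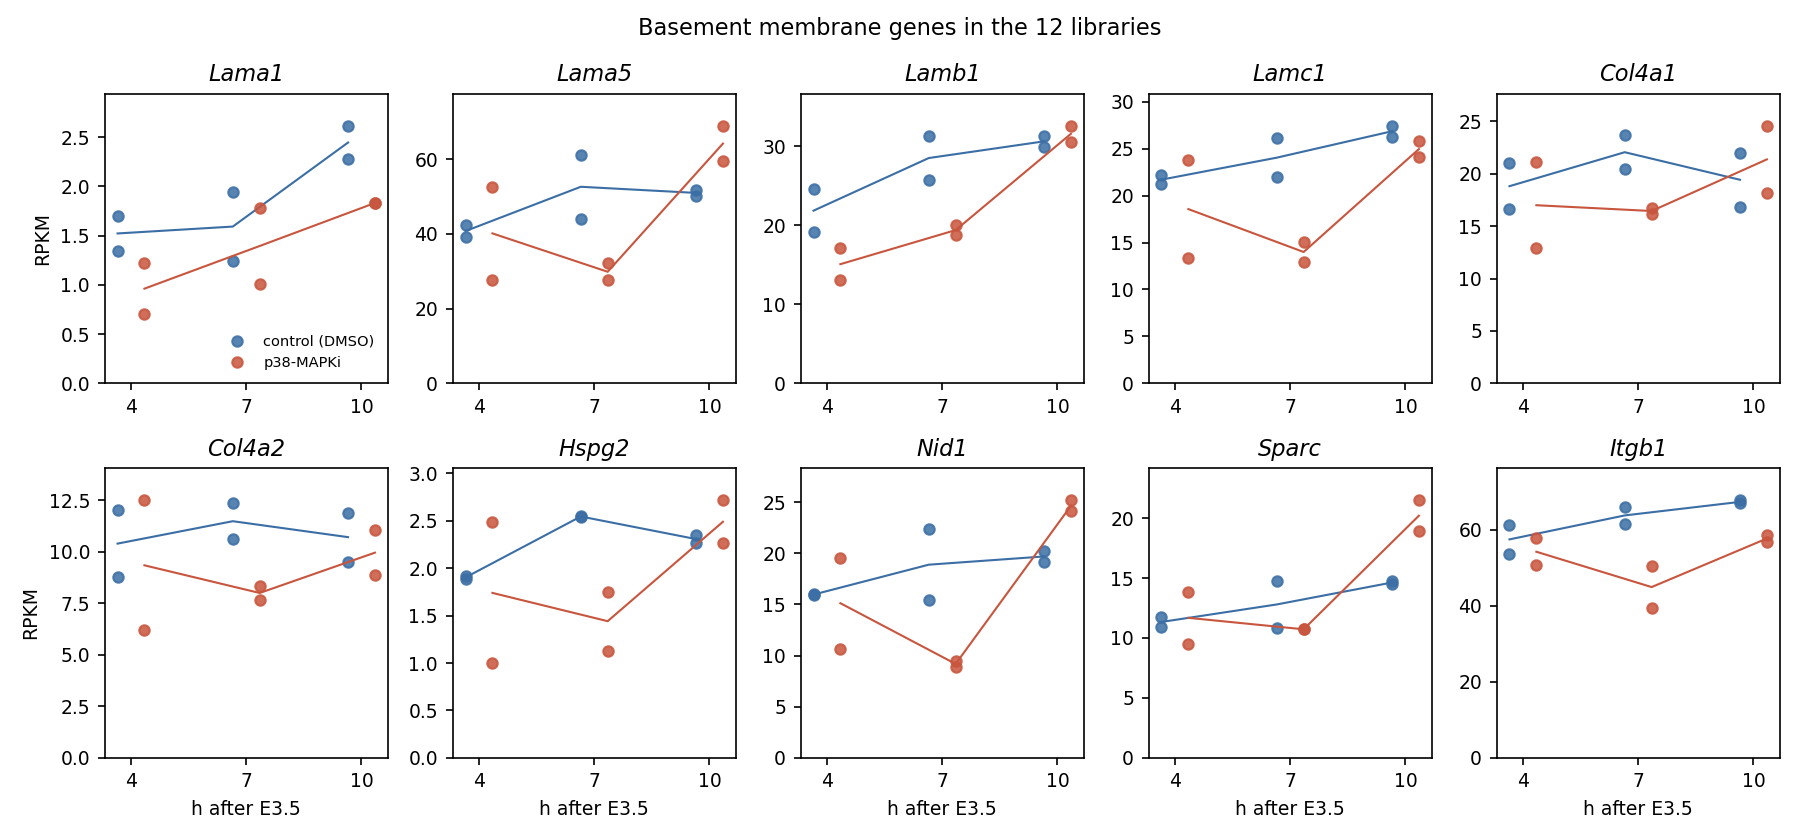
Level of each gene in RPKM (vertical axis, from 0) against hours after E3.5, for control (blue) and p38-MAPKi (red) libraries. Points are the 2 libraries of each group and lines join their means. At 7 h the p38-MAPKi points of Nid1 (8.87 and 9.50 RPKM) lie below the controls, and at 10 h (25.2 and 24.1 RPKM) above them.

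The proportions of the chains within a library, per unit of length, varied little for collagen and more for laminin. Type IV collagen is built from α1 and α2 chains in a fixed ratio, and the mRNA ratio of Col4a1 to Col4a2 lay between 1.69 and 2.23 in all 12 libraries, with a median of 1.92. The extremes of that ratio both belonged to p38-MAPKi, replicate 1 at E3.5 + 4 h for the lowest and replicate 1 at E3.5 + 10 h for the highest. Lama5 exceeded Lama1 by 15.6-fold to 49.3-fold. The summed α chains stood at 1.91 to 2.74 times Lamc1, with the top values, 2.74 and 2.53, in the p38-MAPKi libraries at E3.5 + 10 h. Lamb1 relative to Lamc1 ranged from 0.718 in replicate 1 of the p38-MAPKi pair at 4 h to 1.55 in replicate 1 of the p38-MAPKi pair at 7 h. The ratio of Nid1 to Lamc1, the chain that nidogen binds, was 0.977 and 0.998 in p38-MAPKi at E3.5 + 10 h. In the other 10 libraries it was 0.632 to 0.855.

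**Figure D2:**
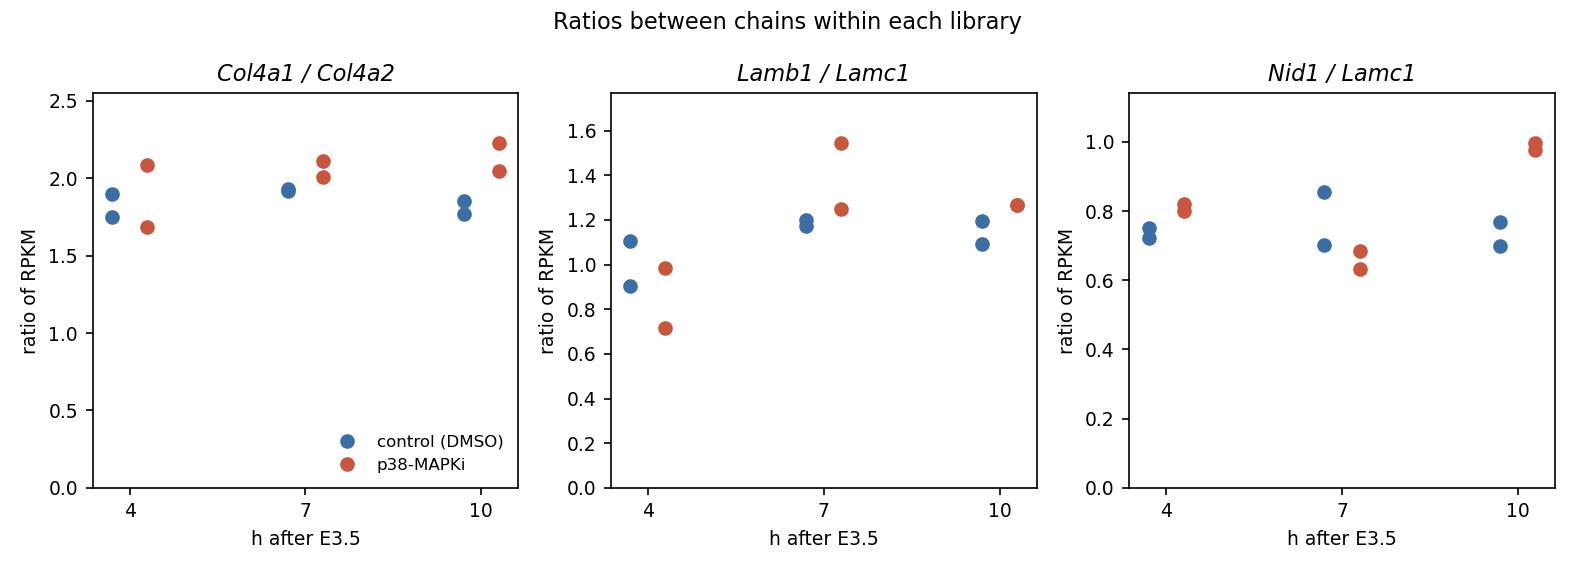
Ratio of RPKM values within each library (vertical axes, from 0) against hours after E3.5, for control (blue) and p38-MAPKi (red). Col4a1 relative to Col4a2 stays between 1.69 and 2.23, and Nid1 relative to Lamc1 is highest in the p38-MAPKi libraries at E3.5 + 10 h, at 0.977 and 0.998.

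Over the 12 libraries the genes varied together. The 45 pairwise correlations of their log2 RPKM values ran from 0.33 (Col4a2 with Sparc) to 0.97 (Lama5 with Nid1), with a median of 0.73, and that of Col4a1 with Col4a2 was 0.93. These coefficients are descriptions over 12 libraries, and within each library the values of all genes share 1 depth. Correlations within other sets of genes, such as genes with equally long transcripts, were not computed. Whether these genes varied together more than others was therefore not tested. Replicate 2 of the p38-MAPKi pair at 4 h held the lowest value of 6 genes and replicate 1 of the p38-MAPKi pair at 7 h that of the other 4. The mean of the centred log2 values was -0.68 in the former, -0.43 in the latter and -0.39 in its partner, against -0.14 to 0.38 in the other 9 libraries.

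Outside the 10 genes, the profile most like their mean, among 7004 genes at 5 RPKM or more in at least 6 libraries, was that of Trim25, with a Pearson correlation of 0.982 over 12 libraries. Itga6, Usp24, Efnb2 and Agrn followed with 0.982, 0.982, 0.982 and 0.980. Itga6 encodes the laminin-binding integrin α6 that pairs with Itgb1, and Agrn encodes agrin, a heparan sulfate proteoglycan of basement membranes. The transcripts of these 5 genes are also long, from 5754 bases (Trim25) to 12350 bases (Usp24).

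Libraries differed in how their values depended on transcript length, and this moved with the level of the basement membrane genes. The slope of a library's log2 RPKM, relative to the mean over libraries, was -0.138 per doubling of transcript length in replicate 2 of the p38-MAPKi pair at 4 h and -0.181 and -0.141 in p38-MAPKi at E3.5 + 7 h. In the other 9 libraries it was -0.0179 to 0.114, with the highest value in replicate 2 of control at E3.5 + 7 h. The 3 libraries with the steepest negative slopes were thus the ones with the lowest mean of these genes. Over the 12 libraries the Pearson correlation between this mean and the slope was 0.904. The part of this slope in the results below was not tested. Values after its removal are printed beside some of these results, and not for every gene. For most genes of the lists they are not printed. Nor are they for differences between times within control or within p38-MAPKi.

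**Figure D3:**
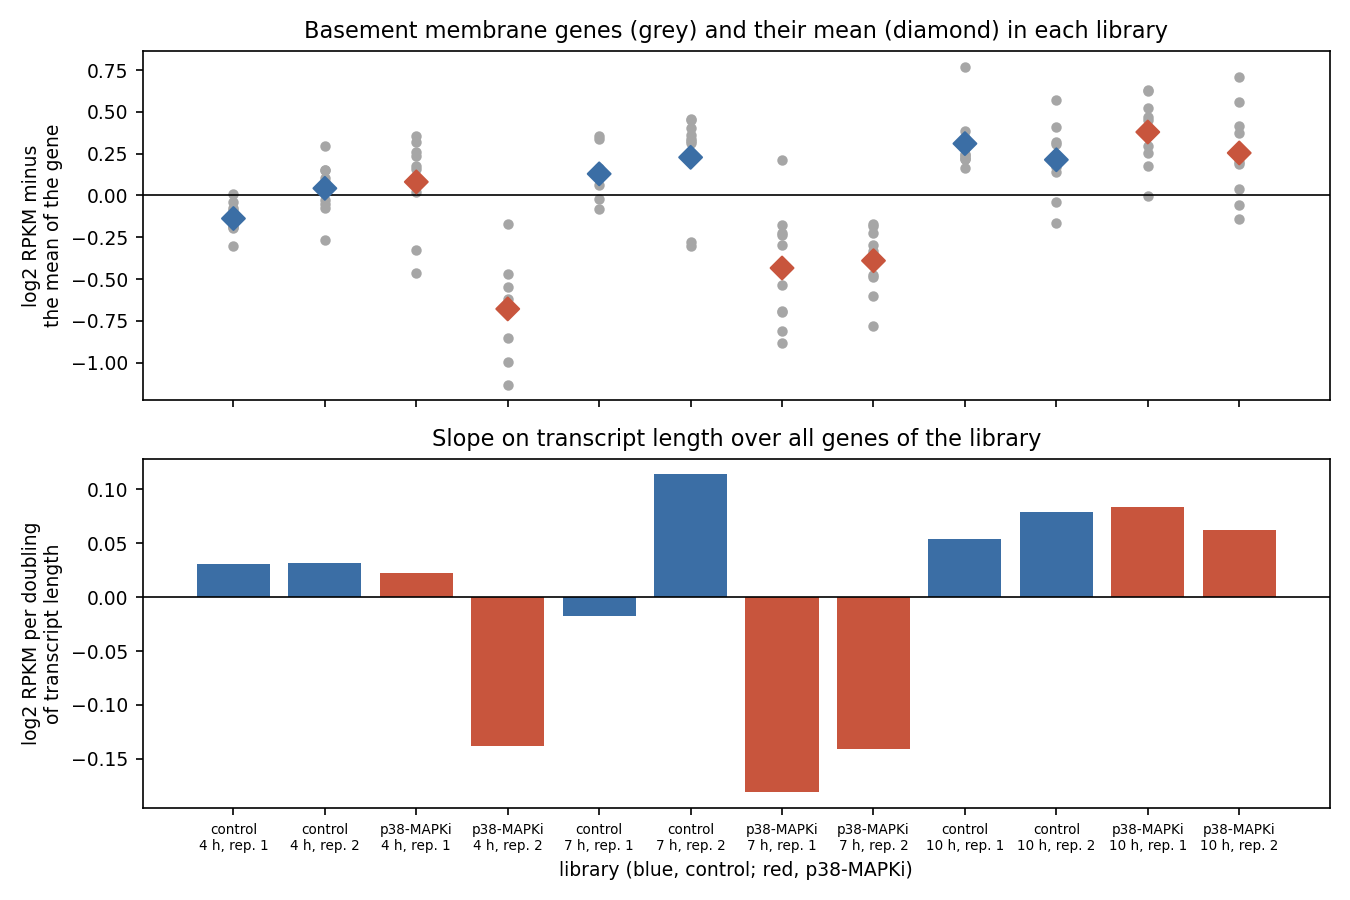
Upper panel, log2 RPKM of each basement membrane gene minus its mean over the 12 libraries (grey) and the mean of the 10 genes (diamonds). Lower panel, slope of log2 RPKM on transcript length over 10720 genes in the same libraries, per doubling of length, with controls in blue and p38-MAPKi in red; the libraries with means of -0.68, -0.43 and -0.39 have slopes of -0.138, -0.181 and -0.141.

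The first question was how the basement membrane programme moved in untreated embryos. Between 4 and 10 h after E3.5 all 10 genes were higher on average in control, with a median log2 difference of 0.30 against 0.14 for all genes tested, although Col4a1 and Col4a2 turned to -0.09 each when libraries were centred on their median and to -0.08 each after quantile normalization. In 8 of the 10 the later libraries lay above the earlier ones without overlap. Over all 10825 genes tested this was so for 42.3%.

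Among the laminins, Lamb1 had 19.2 and 24.6 RPKM at 4 h, 25.8 and 31.3 RPKM at 7 h and 29.9 and 31.4 RPKM at 10 h in control. Its log2 difference from 4 to 10 h was 0.50 ± 0.14 (SE), with an adjusted p of 0.143. Lama1 had 1.34 and 1.70, then 1.94 and 1.24, then 2.62 and 2.27 RPKM. Its later values were the highest of any group, with a log2 difference of 0.69 ± 0.25 (adjusted p = 0.254). Lama5 and Lamc1 differed by 0.32 ± 0.11 and 0.31 ± 0.12, also without overlap. Both collagen chains overlapped between 4 and 10 h. Col4a1 had 16.6 and 21.0 RPKM at 4 h and 22.0 and 16.8 RPKM at 10 h. Sparc, a collagen-binding matrix glycoprotein, went from 11.7 and 11.0 RPKM to 14.7 and 14.5 RPKM, a log2 difference of 0.37 ± 0.13. Itgb1 went from 53.5 and 61.3 RPKM to 67.7 and 66.9 RPKM.

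None of the 10 genes passed the adjusted threshold of 0.05 in limma from 4 to 10 h, where 0.471% of all genes did. At an unadjusted p under 0.05 there were 6, against 15.2% of all genes, and voom on recovered reads called Lama5, Lamb1 and Lama1, with 4.42% of all genes. Without replicate 2 of control at 4 h, limma called Lama5, Itgb1 and Lamb1 and 10.9% of all genes. From 4 to 7 h none was called (0.492% of all genes), 1 had an unadjusted p under 0.05 (4.79%) and voom called 0 (0.0835%). From 7 to 10 h none was called (0.0552% of all genes), with 0 at an unadjusted p under 0.05 (3.79%) and 0 by voom (0.0828%). The median over the 10 genes was 0.19 for the first step and 0.08 for the second.

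The main question was what p38-MAPK inhibition did to these genes at each time. After 4 h, 2 genes, Lamb1 and Lama1, had both treated libraries below both controls, against 13.7% of all genes that were lower without overlap. Lamb1 had 17.1 and 13.1 RPKM against 19.2 and 24.6 RPKM, a log2 difference of -0.54 ± 0.21 (adjusted p = 0.285). Lama1 had 1.22 and 0.700 RPKM against 1.34 and 1.70 RPKM, a log2 difference of -0.71 ± 0.48 (adjusted p = 0.687). The other 8 genes overlapped with the controls. Nid1 had 19.6 and 10.7 RPKM against 15.9 and 16.0 RPKM, and Lama5 had 52.5 and 27.7 RPKM against 39.2 and 42.3 RPKM.

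At this time 9 of the 10 differences were negative, with a median of -0.20 against 0.07 for all genes. Without replicate 2 of p38-MAPKi the direction turned, with 8 of 10 positive and a median of 0.23, and Lamb1 and Lama1 remained negative at -0.34 and -0.31. With the slope on length removed, Lama5 stood at 0.12, and Lamb1 and Lama1 at -0.35 and -0.53. Limma called none of the 10 (0.909% of all genes were called), 1 had an unadjusted p under 0.05 (9.42% of all genes), and voom called 0 (0.315%).

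At E3.5 + 7 h the basement membrane genes were lower in p38-MAPKi than in control. All 10 differences were negative as deposited, and Lama1 alone turned, to 0.12, with the slope on length removed. In 9 of the 10, all but Lama1, both p38-MAPKi libraries lay below both controls, against 38.7% of all genes that were lower without overlap. The median was -0.53 against -0.14 for all genes tested, and 7 of the 10 had a lower value with an unadjusted p under 0.05, against 17.7% of all genes. Limma called none of the 10 after adjustment (2.13% of all genes were called), while voom on recovered reads called Lamc1, Lama5, Hspg2, Lamb1 and Nid1 and with them 15.8% of all genes.

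Among the laminins, Lama5 had 27.6 and 32.1 RPKM in p38-MAPKi against 44.0 and 61.2 RPKM in control. The log2 difference was -0.80 ± 0.21 (adjusted p = 0.0613), or 0.574 of the control level. Lamc1, the γ chain common to most laminins of the embryo, had 13.0 and 15.0 RPKM against 22.0 and 26.1 RPKM. Its difference of -0.78 ± 0.19 (adjusted p = 0.0568) was close to that of Lama5. Lamb1 had 20.0 and 18.8 RPKM against 25.8 and 31.3 RPKM, a difference of -0.55 ± 0.18 (adjusted p = 0.0983). Lama1 had 1.78 and 1.01 RPKM against 1.94 and 1.24 RPKM, so that its groups overlapped (-0.21 ± 0.50).

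Both collagen chains were lower by similar amounts. Col4a1 had 16.7 and 16.2 RPKM against 20.4 and 23.7 RPKM, a log2 difference of -0.42 ± 0.18 (adjusted p = 0.167). Col4a2 had 8.35 and 7.65 RPKM against 10.6 and 12.4 RPKM, a log2 difference of -0.52 ± 0.20 (adjusted p = 0.133). The p38-MAPKi replicates of each chain stood close together and the groups did not overlap.

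As deposited, the linker genes Nid1 and Hspg2 had the largest differences of the 10 genes. The 95% interval of Hspg2 included 0 (-1.74 to 0.03). Its transcript is also the longest of the 10, at 14307 bases, and its value with the slope on length removed is not printed here. Nid1 had 8.87 and 9.50 RPKM in p38-MAPKi against 15.4 and 22.3 RPKM in control. With a log2 difference of -1.02 ± 0.22 (adjusted p = 0.0504) it had the largest difference of the 10 genes, at 0.494 of the control level. Hspg2, the core protein of perlecan, had 1.13 and 1.75 RPKM against 2.54 and 2.55 RPKM, a difference of -0.85 ± 0.39 (adjusted p = 0.189) that varied more because its p38-MAPKi replicates lay apart. Sparc had 10.7 RPKM in both p38-MAPKi libraries against 14.8 and 10.8 RPKM, so that the groups were separated only narrowly (-0.24 ± 0.21). Itgb1 had 39.3 and 50.5 RPKM against 61.5 and 66.0 RPKM, a difference of -0.52 ± 0.19 (adjusted p = 0.116).

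**Figure D4:**
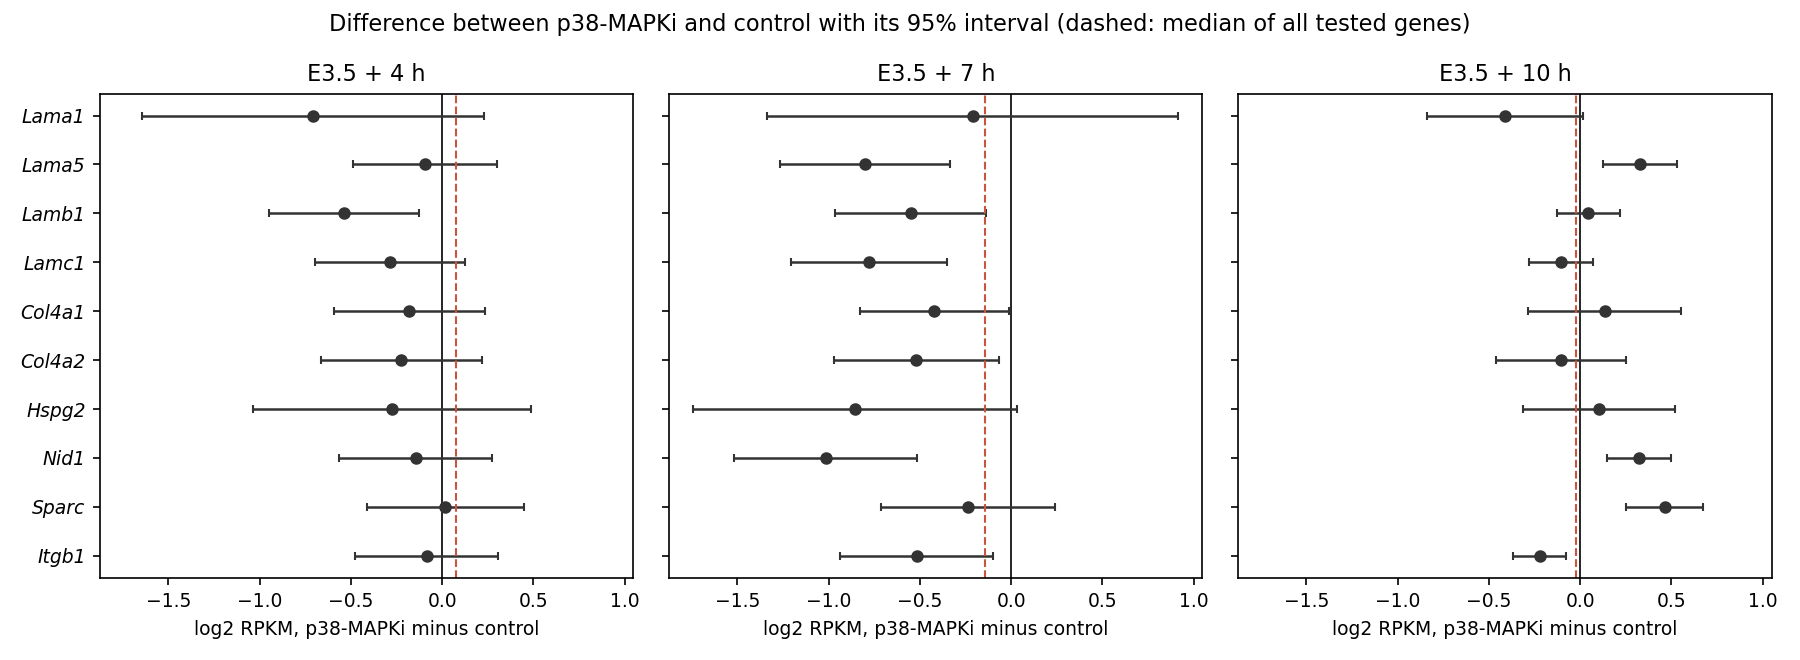
Log2 difference between p38-MAPKi and control for each gene (points) with its 95% confidence interval from limma (bars) at 4, 7 and 10 h. The dashed line is the median of all tested genes (0.07, -0.14 and -0.02); at 7 h all 10 points lie left of 0, from -1.02 (Nid1) to -0.21 (Lama1), and with the slope on length removed Lama1 lies at 0.12.

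With the slope on transcript length removed, the 7 h differences shrank to a median of -0.35 against -0.12 for all genes. Nid1 stood at -0.79 (adjusted p = 0.0679), Lamc1 at -0.49, Itgb1 at -0.48 and Lama5 at -0.42. Sparc, whose transcript of 3788 bases is the shortest of the 10, hardly moved, to -0.23, and Lamb1 went to -0.21. Without replicate 1 of p38-MAPKi, the library with the fewest reads, all 10 genes were lower, with a median of -0.59, and limma called Nid1 (-0.97, adjusted p = 0.0255) and 5.35% of all genes. Without replicate 2 of p38-MAPKi it called Lamc1, Lama5, Hspg2, Itgb1 and Nid1, but also 27.4% of all genes. Without replicate 1 of control it called Lama5 and Nid1 (3.72% of all genes), and without replicate 2 of control none of the 10 and 0 genes in all.

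**Figure D5:**
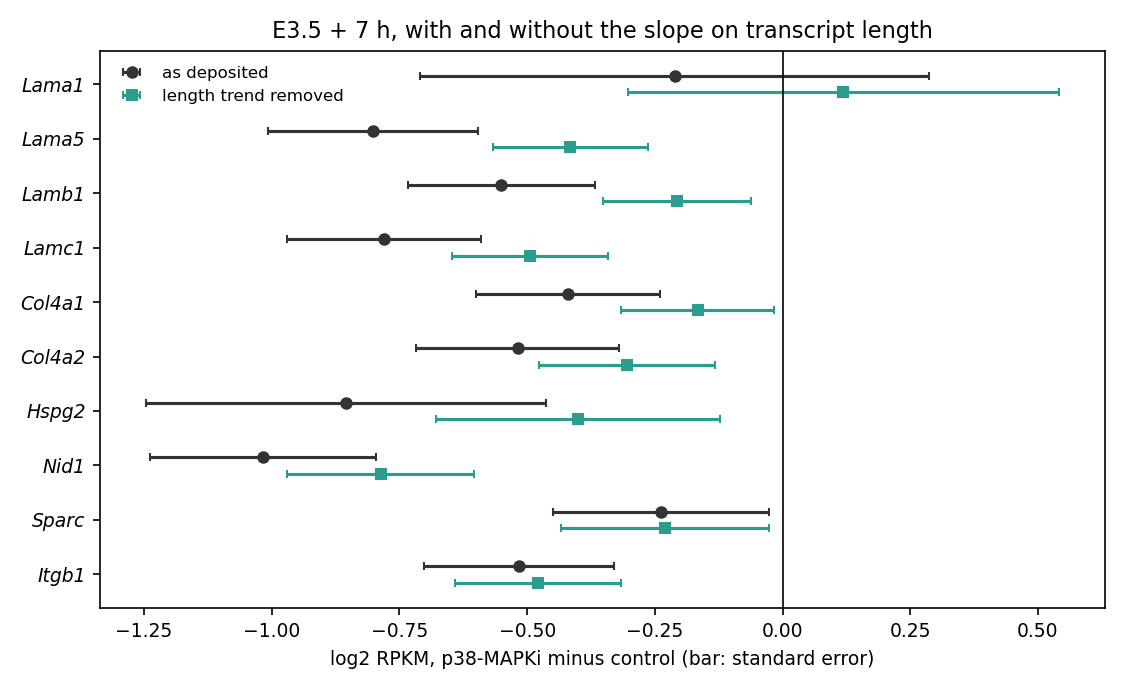
Log2 difference between p38-MAPKi and control at E3.5 + 7 h (horizontal axis, bars are standard errors) as deposited (circles) and after removal of each library's slope on transcript length (squares). Nid1 moves from -1.02 to -0.79, Lama5 from -0.80 to -0.42 and Lama1 from -0.21 to 0.12.

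PrE markers, like most of the trophectoderm and epiblast markers tested, were also lower in p38-MAPKi at this time. The summed level of the 10 PrE markers was 123.3 and 130.8 RPKM in p38-MAPKi against 183.4 and 198.2 RPKM in control, with Gata6 as its largest part. All 8 PrE markers tested were lower, with a median of -0.40, where 59.9% of all genes were lower with a median of -0.14. Dab2, an endocytic adaptor that the PrE expresses strongly, was called (-1.003 ± 0.19, adjusted p = 0.0461). At E3.5 + 4 h the sums were 138.7 and 185.6 RPKM against 150.5 and 182.0 RPKM, and at E3.5 + 10 h 190.2 and 196.1 RPKM against 187.0 and 191.2 RPKM. The median of the 7 trophectoderm markers tested at 7 h was -0.39, with 5 of them lower. Their list summed to 2095 and 2229 RPKM in p38-MAPKi against 1851 and 2434 RPKM in control, so the sums overlapped. The median of the 8 epiblast markers was -0.27, with 7 of them lower, and their sums were 205.4 and 234.4 RPKM against 243.6 and 248.4 RPKM. The part of the cell type composition in the differences of the basement membrane genes was not tested.

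At E3.5 + 10 h the differences of the 10 genes had both signs, with 6 positive and 4 negative. Sparc, Nid1 and Lama5 were higher in p38-MAPKi than in both controls, Itgb1, Lamc1 and Lama1 were lower, and the other 4 overlapped. Higher values without overlap were found for 22.6% of all genes and lower ones for 29.6%. The split of the 10 genes thus lay near the shares over all genes. The median over the 10 genes was 0.07 against -0.02 for all genes. None of the 10 passed the adjusted threshold in limma, where 0.803% of all genes did, 4 had an unadjusted p under 0.05, against 19.8% of all genes, and voom called Lama5, Sparc and Nid1, with 4.77% of all genes.

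Sparc had the largest difference, with 18.9 and 21.5 RPKM in p38-MAPKi against 14.7 and 14.5 RPKM in control. It was 1.38-fold higher, a log2 difference of 0.46 ± 0.09 (adjusted p = 0.0727), and 0.46 with an adjusted p of 0.0373 once the slope on length was removed, where 2.84% of all genes were called. Nid1 had 25.2 and 24.1 RPKM against 19.2 and 20.2 RPKM, a log2 difference of 0.32 ± 0.07 (adjusted p = 0.0927). Lama5 had 69.0 and 59.4 RPKM against 51.7 and 50.2 RPKM, a log2 difference of 0.33 ± 0.09 (adjusted p = 0.112). The directions of these 3 genes were kept under median centring, quantile normalization and removal of the slope on length.

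Itgb1, the receptor subunit, had 56.8 and 58.5 RPKM in p38-MAPKi against 67.7 and 66.9 RPKM in control. Its log2 difference was -0.22 ± 0.06 (adjusted p = 0.124). Lamc1, which like Itgb1 lay below both controls at 7 and at 10 h, had 25.8 and 24.2 RPKM against 27.5 and 26.3 RPKM, a small gap of -0.11 ± 0.07. Lama1 had 1.83 RPKM in both p38-MAPKi libraries against 2.62 and 2.27 RPKM (-0.41 ± 0.18, adjusted p = 0.263). Lamb1 was level, at 32.6 and 30.6 RPKM against 29.9 and 31.4 RPKM, with a 95% interval of the log2 difference from -0.13 to 0.22. Col4a1, Col4a2 and Hspg2 overlapped, with intervals of -0.29 to 0.55, -0.46 to 0.25 and -0.31 to 0.52.

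Within p38-MAPKi the step from 7 to 10 h was upward for every gene. All 10 had higher values in both libraries at 10 h than in either library at 7 h, against 44.1% of the 11024 genes expressed in these 4 libraries. The mean log2 differences ran from 0.31 (Col4a2) to 1.42 (Nid1), with a median of 0.76 against 0.16 for all genes. By these means Nid1 was 2.68-fold higher at 10 than at 7 h, Lama5 2.15-fold and Sparc 1.88-fold. In control the same step had a median of 0.08, with 6 of 10 genes upward. The step within p38-MAPKi is given as a description, since the design set no test for it, and the slopes on length of the libraries differed between these times as given above.

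The difference between the inhibitor effects at 10 and 7 h was tested as an interaction over 8 libraries. It was positive for 9 of the 10 genes, with a median of 0.63 against 0.15 for all genes, and 6 had a positive difference with an unadjusted p under 0.05, against 16.6% of all genes. Nid1 differed by 1.34 ± 0.24 (adjusted p = 0.0625), Lama5 by 1.13 ± 0.24 (adjusted p = 0.0677), Lamc1 by 0.67 ± 0.18 (adjusted p = 0.0796) and Lamb1 by 0.59 ± 0.17 (adjusted p = 0.0901). Hspg2 and Sparc were at 0.96 ± 0.38 and 0.70 ± 0.22. Lama1 was the exception at -0.20 ± 0.50. Limma called none after adjustment (0.00926% of all genes were called), while voom called Lamc1, Lama5, Lamb1 and Nid1, with 9.29% of all genes. Without replicate 1 of control at 7 h limma called the same 4 and 8.54% of all genes. Without replicate 2 of p38-MAPKi at 7 h it called Lamc1, Lama5, Hspg2, Itgb1 and Nid1 and 26.7% of all genes. With the slope on length removed, Nid1 stood at 1.12 (adjusted p = 0.0635), Lama5 at 0.74 and Sparc at 0.71, and the median was 0.35.

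The remaining comparisons gave less. Between 7 and 4 h the interaction had a median of -0.36 (all genes -0.21) with Nid1 lowest at -0.87 ± 0.37. Limma called none of the 10 (0.00933% of all genes), 1 had an unadjusted p under 0.05 (6.94%) and voom called 0 (0.00933%). Between 10 and 4 h the median was 0.35 (all genes -0.08) with Lamb1 highest at 0.58 ± 0.23. Limma called none of the 10 and 0% of all genes, 1 had an unadjusted p under 0.05 (9.96% of all genes), and voom called 0 (0%). Without replicate 1 of p38-MAPKi at 4 h limma called Lama5, Sparc, Lamb1 and Nid1 there, with 6.42% of all genes. For the effect common to the 3 times, 9 of the 10 estimates were negative with a median of -0.28 (all genes -0.03). Lamc1 at -0.39 ± 0.14, Lamb1 at -0.35 ± 0.12 and Itgb1 at -0.27 ± 0.09 had an unadjusted p under 0.05 (26.2% of all genes). Limma called none of the 10 after adjustment (3.06% of all genes were called), and voom called 0 (4.33%). Without replicate 1 of p38-MAPKi at 4 h limma called Lamc1 (-0.51) and 6.68% of all genes.

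Other genes of the same machinery were followed through lists of family members and partners. The counts of lower genes at 7 h in these lists stand beside 59.9% of all genes tested that were lower, with a median of -0.14. Of 6 other laminin subunits 2 were tested at E3.5 + 7 h and both were lower without being called. Lama3, an α chain of epithelial laminins, stood at -0.82 ± 0.23 and Lamb2 at -0.79. Of 24 other basement membrane proteins 7 were tested and all 7 were lower, with a median of -0.49. Agrn was called, with 6.64 and 7.52 RPKM in p38-MAPKi against 14.0 and 15.1 RPKM in control (-1.04 ± 0.19, adjusted p = 0.0461). Npnt, an integrin α8 ligand, stood at -1.02 without being called. At E3.5 + 10 h Agrn was level with control at 0.06, Npnt stood at 0.38, Fbln1 at 0.32 and Lama3 at -0.46, and no gene of either list was called.

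Of 22 laminin and collagen receptors 13 were tested, 10 of them lower at 7 h with a median of -0.34. Dag1, the laminin receptor dystroglycan, was called, with 22.6 and 30.3 RPKM against 50.8 and 52.5 RPKM (-0.98 ± 0.19, adjusted p = 0.0461), and Itga3 stood at -0.89. The syndecan Sdc1 went the other way, with 7.36 and 8.85 RPKM against 3.17 and 4.31 RPKM at 7 h (1.13, adjusted p = 0.0514). Over the 3 times Sdc1 was called as higher (0.74 ± 0.16, adjusted p = 0.0288). Sdc4 stood at 0.21 at 7 h. At 10 h Sdc1 was at 0.45, Ddr2, a collagen receptor kinase, at 0.43, Ddr1 at -0.17 and Itgb5 at -0.13, none called.

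Of 18 adaptors of integrin adhesions 17 were tested, 15 of them lower at 7 h with a median of -0.62. Tns3, a tensin, was called, with 9.66 and 11.9 RPKM against 19.8 and 23.4 RPKM (-1.01 ± 0.20, adjusted p = 0.0461). Tln1, which couples integrin β tails to actin, stood at -0.94 (adjusted p = 0.0538), while Fermt1 and Bcar1 were at 0.39 and 0.15. At 10 h the median was -0.01, with Fermt1 at 0.92, Tln2 at 0.18, Bcar1 at -0.58 and Fermt2 at -0.23, none called.

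Of 20 genes for the folding, modification and export of collagen IV and laminin 17 were tested. At 7 h 13 of them were lower, with a median of -0.17 that lay near the -0.14 of all genes. Sec23a, a COPII coat subunit used for collagen export, was called, with 10.0 and 12.2 RPKM against 21.3 and 21.7 RPKM (-0.96 ± 0.19, adjusted p = 0.0461). Its partner Sec24d had 1.15 and 2.29 RPKM against 3.67 and 3.26 RPKM at 7 h, a difference of -1.09 (adjusted p = 0.119), and stood at -1.04 (adjusted p = 0.068) at 10 h, without overlap at either time. P4hb was at 0.14 at 7 h. P4ha1, a collagen prolyl 4-hydroxylase subunit, was at -0.38, and Plod1 and Colgalt1 were both at 0.23 at 10 h.

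Of 16 matrix proteases and inhibitors 9 were tested at 7 h, with a median of -0.16 against -0.14 for all genes, and none was called. Plau, the urokinase-type plasminogen activator, was called at E3.5 + 4 h, with 14.1 and 15.6 RPKM against 7.39 and 6.92 RPKM (1.05 ± 0.22, adjusted p = 0.000938), and over the 3 times (0.70 ± 0.17, adjusted p = 0.0404). At 7 h it stood at 0.75, Mmp15 at 0.27, Plat at -0.53 and Adam17 at -0.47. At 10 h Mmp9, a gelatinase that cleaves collagen IV, was at -1.23 (adjusted p = 0.0727), Adam17 at -0.18, Timp1 at 0.56 and Htra1 at 0.40.

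Dab2 stood at -0.14 at 10 h. Among the other lineage markers, the PrE factor Gata4 stood at -0.65 at 7 h and -0.70 at 10 h, and Amn and Cubn, the endocytic receptors of visceral endoderm, at 0.68 and 0.34 at 10 h. Prdm14 of the epiblast had 0 and 26 reads in p38-MAPKi against 95 and 88 reads in control at 7 h, and Esrrb stood at -0.61, Gdf3 at 0.39. At 10 h Tdgf1 was at -0.30, Gdf3 at 0.20 and Prdm14 at -0.40. The trophectoderm factors Gata3 and Cdx2 were called over the 3 times (-0.51 ± 0.09 and -0.38 ± 0.08, adjusted p = 0.0155 and 0.0317). Of the 7 trophectoderm markers tested there, 4 were lower and 3 higher, with a median of -0.09. Gata3 stood at -0.68 at 7 h and -0.30 at 10 h, Cdx2 at -0.22 at 10 h, and Tead4 at -0.65 at 7 h and 0.06 at 10 h.

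The 5 genes of these lists called at E3.5 + 7 h (Agrn, Dag1, Tns3, Sec23a and Dab2) lost their calls in 7 of 14 alternatives, Dag1 in 8. All 5 were lost with the slope on length removed, with values of -0.72, -0.78, -0.63, -0.86 and -0.75, with median centring (adjusted p = 0.0694 for each), with quantile normalization (0.0567) and in limma without the trend (0.158). All 5 were also lost without replicate 1 of control at 7 h (adjusted p = 0.0541 for Tns3 to 0.0833 for Sec23a) and without replicate 2 of it (0.237 for Dab2 to 0.354 for Tns3). Without replicate 1 of p38-MAPKi Dag1 missed the threshold (0.0524). Each of the 5 kept its call in voom, and no alternative turned a sign.

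Plau lost its call at 4 h in 7 of 14 alternatives, among them median centring (adjusted p = 0.295), quantile normalization (0.286), one fit over 12 libraries (0.202), and the fits without replicate 1 or 2 of control (0.130 and 0.135). It kept the call with the slope removed (0.95, adjusted p = 0.00188). Over the 3 times Gata3 kept its call in all 21 alternatives tried, whereas Cdx2 lost it in 9 of 21 (adjusted p up to 0.0906), Plau in 11 of 21 (up to 0.111) and Sdc1 in 8 of 20 (up to 0.0813). Most of these losses came with 1 library left out.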

How the data were processed

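The 12 libraries were prepared with a directional kit and sequenced from a single end. Per the submitters' processing notes and the paper, the authors trimmed the reads with Trim Galore 0.4.1, mapped them to GRCm38 with HISAT2 2.0.5, quantified them in SeqMonk by gene and deposited log2 RPKM values of every library. Genes with no read carry the value of 0.9 read, from which the depth of each library follows. The strand option, and the treatment of reads that map to several places, are not given in the sources used here, so reads in the bases shared by Col4a1 and Col4a2 cannot be assigned with certainty.

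The log2 values were compared as deposited with limma 3.58.1 (lmFit, and eBayes with a trend) in R 4.3.3, over genes at 1 RPKM or more in at least 2 of 4 libraries (4 of 8 for interactions, 6 of 12 for the common effect). P-values were adjusted by Benjamini-Hochberg over all genes tested, with a threshold of 0.05. At E3.5 + 4 h, and for control at 7 against 4 h, limma gave all genes the variance of the trend. The p-values of these comparisons therefore do not follow the spread of each gene's own replicates. No spiked-in RNA was present, so values are shares of each library. Replicates were read as separate pools, and in the other comparisons p-values draw on the spread between them and on the trend. Whole reads were recovered from the depths and transcript lengths for 34245 genes and used in voom. The lengths also served to remove each library's slope on length (loess, span 0.5). The fits were tested on simulated data. Python 3.11.15 was used for the rest.

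The members, the lists and the rule below were chosen with earlier results of these data known. All 10 members are named. From each of 11 lists, every gene called in a comparison of p38-MAPKi with control is named, at most 4 per list and comparison, and at most the 2 largest rises and falls at 7 and at 10 h among genes whose libraries do not overlap. One gene of the lists is not reported here. The 5 genes most like the mean of the members are named by their correlation.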

Additional observations from a re-analysis of the deposited data

Results flagged for a closer look

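For 3 of the basement membrane genes the libraries of p38-MAPKi lay below both controls at E3.5 + 7 h and above both at E3.5 + 10 h. Of all genes tested 38.7% lay below both controls at 7 h and 22.6% above both at 10 h. The share that did both was not counted. For Sparc the gap at 7 h was narrow, with 10.7 RPKM in both p38-MAPKi libraries against 10.8 RPKM in the lower control. The difference between the inhibitor effects, 10 h minus 7 h, was 1.34 for Nid1, 1.13 for Lama5 and 0.70 for Sparc on the log2 scale, with adjusted p of 0.0625, 0.0677 and 0.104 in limma's interaction over 8 libraries. None of the 3 passed the threshold. The slopes on transcript length of the p38-MAPKi libraries were -0.181 and -0.141 at 7 h and 0.0837 and 0.0623 at 10 h, and with these slopes removed the differences were 1.12, 0.74 and 0.71 (adjusted p = 0.0635, 0.0825 and 0.121).

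Genes of the lists showed the same kind of opposite position, also without passing the threshold. They are named because of that position, and the share of all genes that showed it was not counted. For 10 h minus 7 h the value was 1.40 for Npnt, 0.86 for Plat, 0.82 for Tln2, 0.72 for Tead4, 0.68 for Cubn, 0.63 for Fbln1, 0.40 for Colgalt1, -0.36 for P4hb and -0.73 for Bcar1 (adjusted p between 0.0866 and 0.184). For 10 h minus 4 h it was 0.86 for Ddr2, -0.47 for P4hb, -0.48 for Itgb5, -0.64 for P4ha1 and -1.74 for Mmp9 (adjusted p between 0.372 and 0.450). For 7 h minus 4 h it was -0.67 for Fbln1 and -0.43 for P4ha1 (adjusted p = 0.647 for both). The gap of P4ha1 at 7 h was narrow, with 14.36 and 14.37 RPKM in p38-MAPKi against 14.51 RPKM in the lower control.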

How the results depend on the processing

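None of the 10 genes was called in any of the 10 comparisons, and in 6 of them an alternative made calls. For p38-MAPKi against control at E3.5 + 7 h there were 3 calls with a minimum of 10 RPKM (18.6% of all genes tested were called), 2 with log2(RPKM + 1) (4.65%), 5 in one fit over 12 libraries (24.3%), 5 by voom (15.8%) and 0 to 5 when 1 library was left out. At E3.5 + 10 h there was 1 call (Sparc) with the minimum of 10 RPKM (3.22%) or the slope on length removed (2.84%) and 3 by voom (4.77%). For control at 10 against 4 h there was 1 call (Lamb1) under the same pair of settings (5.48% and 2.36%), 3 by voom (4.42%) and 0 to 3 with a library left out. For the interaction of 10 and 7 h there were 3 with the minimum of 10 RPKM (10.7%), 4 by voom (9.29%) and 0 to 5 with a library left out. For that of 10 and 4 h there were 0 to 4 with a library left out, and for the common effect 1 (Itgb1) under quantile normalization (6.8%) and 0 to 1 with a library left out. Limma without the trend, median centring and the unfiltered table gave none anywhere. The causes were not tested. The minimum of 10 RPKM leaves fewer genes to adjust over (5081 against 10940 at 7 h), tests 8 of the 10 and fits the variance trend anew. With it the share of genes with an unadjusted p under 0.05 in limma at 7 h went from 28.4% to 36.5%.

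The replicate numbers were not used as pairs. Differences between replicates correlated at -0.0124, 0.1622 and 0.1671 across genes between control and p38-MAPKi at 4, 7 and 10 h. Whether libraries of the same number were paired cannot be told from these values. With the replicate block 5 of the 10 genes were called at 7 h, 1 (Sparc) at 10 h and 1 (Lamb1) for control at 10 against 4 h, and the number of all genes called moved from 233 to 2023, from 88 to 410 and from 51 to 536 (18.5%, 3.74% and 4.95% of those tested).

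Over all genes, counts of calls varied widely between settings: from 0 to 137 at 4 h (98 as reported), 0 to 2601 at 7 h (233), 0 to 523 at 10 h (88), 0 to 536 for control at 10 against 4 h (51), 0 to 28 for 10 against 7 h (6), 0 to 52 for 7 against 4 h (53), 0 to 1004 for the interaction of 10 and 7 h (1) and 89 to 729 for the common effect (328). With 1 library left out they were 6 to 412, 0 to 2996, 42 to 107, 53 to 1183, 12 to 209, 8 to 56, 0 to 2883 and 66 to 716 in the same order, and 0 to 315 and 0 to 690 for the interactions of 7 and of 10 h with 4 h (1 and 0). Of 1570 recomputed differences of the 10 genes 69 changed sign and 65 passed the threshold, none of them in the opposite direction to the value reported. At 7 h the median over the 10 genes lay between -0.66 and -0.34, at 4 h between -0.64 and 0.23. With 2 libraries a group, an adjusted p over the threshold does not show that levels were alike.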
